A study of Homo sapiens with 3 samples.

Results

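The genes described here are 10 markers by which pathologists and laboratories recognise carcinoma of the ovary: PAX8, WT1, SOX17, EMX2, ESR1, PGR, MUC16, MSLN, FOLR1 and WFDC2. They were chosen by symbol, and all 10 were found, as 25 transcript rows, among 18674 genes in the table. The cells were A2780, a cell line from an undifferentiated ovarian tumour, stably carrying either the empty control vector pBABE (1 library) or exogenous miR-181a (2 libraries, p181a #1 and p181a #2, called pool 1 and pool 2). The labels speak of polyclonal pools in the extraction protocol and of clones in the sample fields, and they do not say whether these are independent cultures, so a p-value here reflects only how far these 2 libraries differ, a difference that may be technical. Messenger RNA was sequenced, and the deposited value is the coverage of a RefSeq transcript, that is the median read density over windows of 50 bp along it. Being a density, coverage does not add up with transcript length. As a median it also depends on how evenly reads lie along a transcript, which was not tested.

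PAX8, SOX17, EMX2 and WT1 are transcription factors. PAX8 and EMX2 act in the development of the Mullerian duct, from which the fallopian tube and uterus form, SOX17 is expressed in the tubal epithelium, and WT1 marks serous carcinoma and mesothelium. ESR1 and PGR encode the oestrogen and progesterone receptors, and PGR is a textbook target of ESR1. MUC16 carries the serum antigen CA-125 and binds mesothelin, the product of MSLN. FOLR1 is a folate receptor anchored at the cell surface, and WFDC2 encodes the secreted serum marker HE4.

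The markers were at or near 0 in the miR-181a cells. In 7 of the 10 genes (PAX8, WT1, SOX17, EMX2, ESR1, PGR and MUC16) every transcript row was listed at 0 in both pools, as in 32.1% of all genes. FOLR1 alone was above 0 in both pools, against 64.3% of all genes, and no marker reached a coverage of 1 in either pool, whereas 57.9% of all genes were above 1 in both. The highest value of any marker in a pool was 0.632, for WFDC2 in pool 2, whereas the median of genes above 0 was 15.6 in pool 1 and 12.1 in pool 2. A row is listed at 0 when at least 50% of its windows hold no reads, so 0 does not mean that no read was found. The labels call the cells ovarian cancer cells. PAX8 and the serous marker WT1 were not found in either pool at this measure, and their pBABE values are given below.

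**Figure D1:**
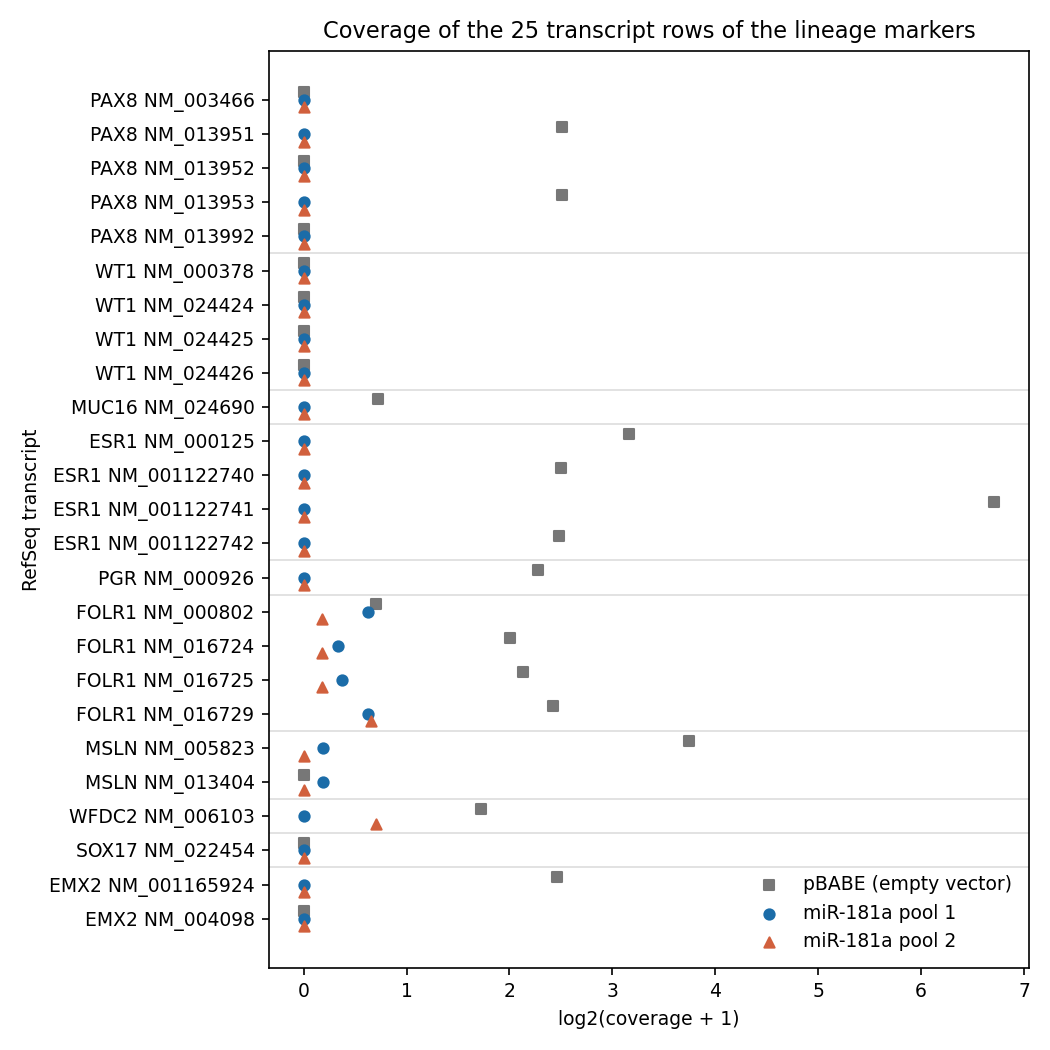
Coverage of the 25 RefSeq rows of the 10 markers, as log2(coverage + 1) on the horizontal axis, with 1 symbol for each of the 3 libraries. Both pools lie at 0 in 18 of the 25 rows, and the pBABE library is the one with values that stand far to the right, up to 104 for 1 ESR1 row.

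The pBABE library had values where the pools had none. Coverage summed to 798228 in the pBABE library, 907092 in pool 1 and 719263 in pool 2, no read counts are given, and the depth of each library is therefore unknown. Of all transcript rows, 8822 were at 0 in both pools. The pBABE library was above 0 in 62.9% of them, and its median there was 1.15 and its 90th percentile 16.8. For this reason the presence of a marker was judged from the pools first, and for a row at 0 in both pools a pBABE value above 0 is given below beside the share of those 8822 rows that had at least as high a value. Whether each pBABE value stands on the row of its own transcript in the deposited table was not tested, and every pBABE value below carries that limit.

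Among the transcription factors, WT1 was listed at 0 in all 3 libraries in each of its 4 rows. SOX17, with a single row, was also at 0 in all 3 libraries. These were the markers on which the pBABE library and the pools gave the same value. PAX8 was at 0 in both pools in all 5 of its splice variants. In the pBABE library 3 PAX8 rows were at 0 and the other 2, NM_013951 and NM_013953, shared the value 4.71. A value at least that high was found in 29.1% of rows at 0 in both pools. EMX2 had a row at 0 in all 3 libraries, NM_004098, and a row, NM_001165924, at 4.50 in the pBABE library and 0 in both pools. Of the rows at 0 in both pools, 29.8% had a pBABE value at least as high as this EMX2 row. The pBABE library thus gave PAX8 and EMX2 a value in some of their transcripts and 0 in others, while the pools gave 0 throughout.

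The hormone receptors were listed at 0 in both pools in every row. ESR1 has 4 rows, transcript variants that encode the same receptor and differ in their untranslated leader exons. In the pBABE library these stood at 104 (NM_001122741), 7.96 (NM_000125), 4.64 (NM_001122740) and 4.57 (NM_001122742), and the highest was 22.7 times the lowest. A pBABE value of 104 or more was found in 1.18% of rows at 0 in both pools, and values of 7.96, 4.64 and 4.57 or more in 20.0%, 29.3% and 29.6%. ESR1 therefore held the highest pBABE value of the markers, and it rested on 1 of 4 rows. PGR, with a single row, was at 3.85 in the pBABE library and 0 in both pools. For PGR the share of rows at 0 in both pools with a value at least as high was 32.5%, and 18 other symbols had exactly the same pBABE value.

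Of the cell surface and secreted markers, FOLR1 was the one seen in both pools. Its highest row there, NM_016729, was at 4.37 in the pBABE library, 0.540 in pool 1 and 0.577 in pool 2, a pool mean of 0.558 ± 0.0262 (SD, n = 2). That level lay above 38.4% of genes in pool 1 and 39.4% in pool 2, most of them genes at 0. Row NM_000802 was at 0.630 in the pBABE library, 0.540 in pool 1 and 0.132 in pool 2, so on that row the pBABE library and pool 1 were close. The other FOLR1 rows, NM_016725 and NM_016724, had 3.37 and 3.01 in the pBABE library, 0.291 and 0.263 in pool 1 and 0.132 each in pool 2. All 4 rows were above both pools in the pBABE library, by amounts that differed between the rows.

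MSLN and WFDC2 were each above 0 in a single pool. Both MSLN rows were at 0.140 in pool 1 and 0 in pool 2. In the pBABE library, however, NM_005823 was at 12.4 and NM_013404 at 0. On the NM_013404 row the pBABE library was thus below pool 1. WFDC2 was at 2.30 in the pBABE library, 0 in pool 1 and 0.632 in pool 2, where the pool means of 0.316 ± 0.447 (SD, n = 2) for WFDC2 and 0.0698 ± 0.0986 (SD, n = 2) for MSLN were smaller than their SD. MUC16 was at 0.649 in the pBABE library and 0 in both pools, and 54.5% of rows at 0 in both pools had a pBABE value at least as high. By pool mean the order was FOLR1, WFDC2, MSLN and then 7 genes at 0. The SD of WFDC2 spans both FOLR1 and MSLN, so the order of these 3 is not resolved by 2 libraries.

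The share of silent markers with a pBABE value lay below that of the table by row and above it by gene. Of the 25 marker rows, 18 were at 0 in both pools, and 9 of these 18 (50%) were above 0 in the pBABE library, beside 62.9% over the table. Counted by gene, 5 of the 7 markers at 0 in both pools had a row above 0 in the pBABE library, beside 67.7% of the 5996 genes at 0 in every row of both pools. Rows of 1 gene are not independent, 4 of the 18 being WT1 and 5 PAX8, and neither count sets the markers apart. The median pBABE value of the 18 rows was 0.325, against 1.15 over all such rows.

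**Figure D2:**
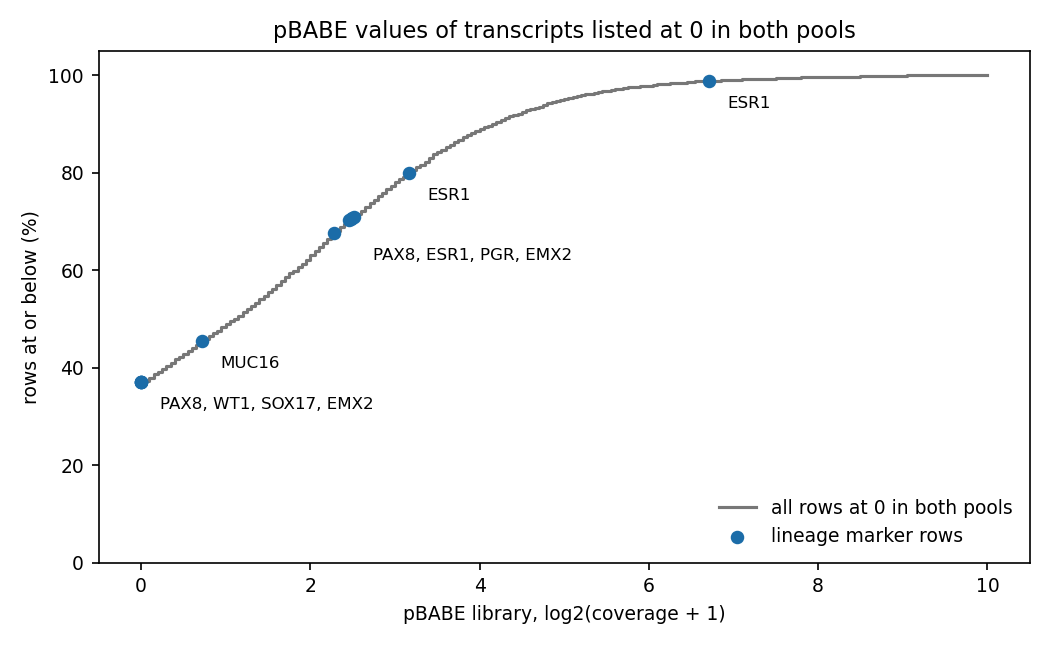
Cumulative share of the 8822 rows listed at 0 in both pools (vertical axis, %) against their pBABE value as log2(coverage + 1) (horizontal axis), with the marker rows as points on the curve. The points spread along the curve, with WT1, SOX17 and rows of PAX8 and EMX2 at its foot and 1 ESR1 row near its top, where 1.18% of rows are as high or higher.

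Rows of the same gene gave a second view of the pBABE values. Of 5775 genes with several rows, 2145 had equal values in all rows in pool 1 and equal values in all rows in pool 2. In 909 of these (42.4%) the rows were at least 1 log2 unit apart in the pBABE library, on log2(coverage + 1). The share was 53.4% (784 of 1468) for genes at 0 in every row of both pools, as PAX8, WT1, ESR1 and EMX2 were, and 16.9% (110 of 649) for genes whose equal rows were above 0 in both pools. Among the 533 genes with equal rows in the pBABE library and pool 2, none was that far apart in pool 1. Among the 549 with equal rows in the pBABE library and pool 1, none was that far apart in pool 2. These shares are not on equal terms. A pool was examined among genes with equal rows in the other pool, whereas the pBABE library has no second library of its kind. Of the 6 markers with several rows, PAX8, WT1, ESR1, MSLN and EMX2 had equal rows in each pool, and in the pBABE library the highest and lowest rows of ESR1 were 4.23 log2 units apart, those of MSLN 3.74, those of PAX8 2.51 and those of EMX2 2.46. The rows of WT1 were equal there as well. Vector values that differed between rows equal in the pools were thus found in 4 of 5 markers. What gave rise to them was not tested.

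**Figure D3:**
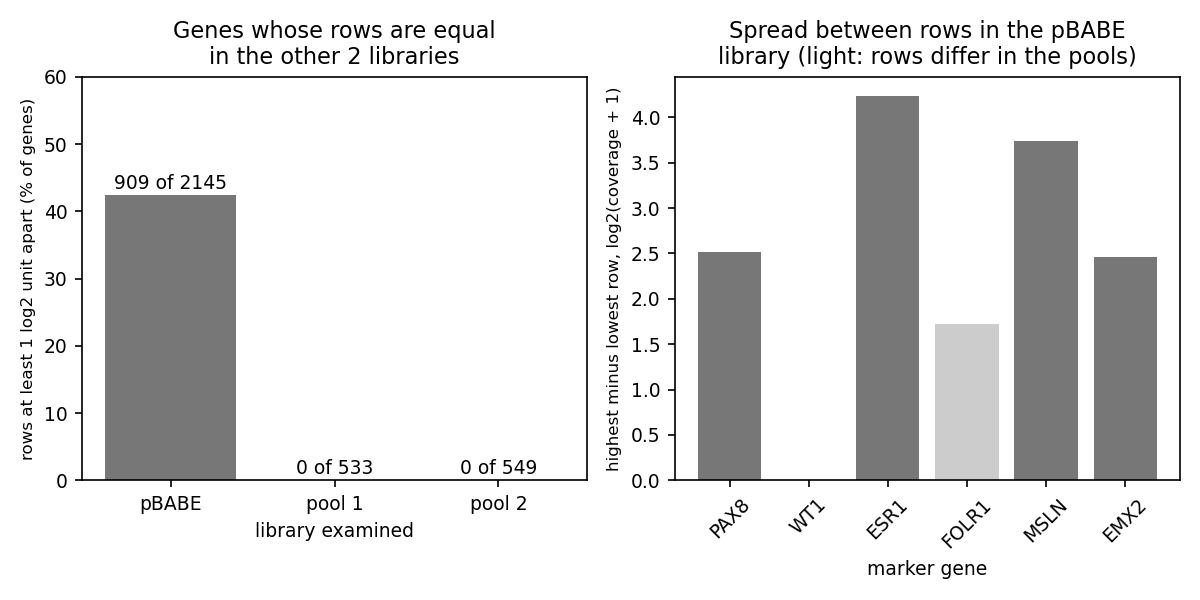
Left, the percentage of genes whose rows lie at least 1 log2 unit apart in the named library, among genes whose rows are equal in each of the other 2 libraries. Right, the distance between the highest and the lowest row of each marker in the pBABE library, on log2(coverage + 1), with FOLR1, whose rows also differ in the pools, in a lighter shade. The left panel shows 42.4% for the pBABE library (53.4% of genes at 0 in both pools and 16.9% of genes above 0 in both) and none for either pool, and the right panel runs from 0 for WT1 to 4.23 for ESR1. The bars on the left are not on equal terms, since only a pool has a second library of its kind.

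The title of the series concerns target genes of miR-181a, and the markers were compared between the pools and the pBABE library. By the row of highest mean, 8 of 10 markers were higher in the pBABE library than in both pools, as were 46% of all 18674 genes. The difference was at least 1 log2 unit on log2(coverage + 1) in 7 markers (ESR1, MSLN, PAX8, EMX2, PGR, FOLR1 and WFDC2), beside 30.6% of all genes and 27.3% of the 12552 genes tested. No marker was that much higher in the pools, as 1.86% of all genes and 2.53% of those tested were. Only ESR1 and MSLN, with a mean over the 3 libraries above the minimum of 2.43, entered the limma test. Both fell, ESR1 with an adjusted p of 0.000129 and MSLN with an adjusted p of 0.00335 and a log2 difference of -3.65 (SE 0.11), lower in 2 of 2 pools (limma, Benjamini-Hochberg adjustment). Of all genes tested, 21.7% fell and 1% rose. Both markers passed the minimum only through their pBABE value, and each of the 1535 genes tested that were at 0 in both pools was called lower, so the count of 2 is not a result about the markers.

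ESR1 was tested on its row of highest mean, NM_001122741, and on the mean of its rows, and on no other row alone. In the main setting every tested gene at 0 in both pools was called lower, ESR1 among them. All ESR1 rows tie on pool mean, as do both MSLN rows, and ties were broken by the mean over the 3 libraries. The row of highest pool mean was therefore the row of highest pBABE value again, with the same log2 differences (-6.71 and -3.65). It is not an independent choice of row. With the mean of all rows ESR1 was called (limma adjusted p = 1.7e-05) and MSLN did not enter the test. MSLN fell on NM_005823, while on NM_013404 the pBABE library was at 0. With library quantiles set equal MSLN did not pass (limma adjusted p = 0.13), and FOLR1 turned to a rise of 0.45 log2 units (limma adjusted p = 0.0417). Scaling also turned the split over all genes, from 2725 lower and 126 higher to 3701 and 6355 with medians set equal and to 3085 and 5179 with quantiles set equal, and it moved the median log2 difference of tested genes from 0.07 to 0.49 and 0.52. An exact permutation test of 1 library against 2 cannot give a p below 0.333. In bulk RNA, fewer cells with a transcript and less transcript per cell cannot be told apart.

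The mature miR-181a-5p is shown because the bases of its seed (positions 2 to 8 from the 5′ end, in capitals) are the ones a target site pairs with. The sequence is that of RefSeq on GRCh38.p14.
hsa-miR-181a-5p: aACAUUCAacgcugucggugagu

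A site that pairs with this seed reads TGAATGT in the messenger. It was searched on the transcript strand in the 3′ UTR of 1 GENCODE transcript per gene on GRCh37 (hg19), and it was found in 19.2% of 19199 genes. ESR1 held 1 match, PGR 2 and SOX17 1, and PAX8, WT1, EMX2, MUC16, MSLN, FOLR1 and WFDC2 held none. Long 3′ UTRs hold more matches: among genes with a 3′ UTR within 25% of the same length, a match was found in 44.6% for the 4308 bases of ESR1, 68.6% for the 9492 bases of PGR and 12.5% for the 897 bases of SOX17. The 3′ UTRs of MUC16, MSLN, FOLR1 and WFDC2 were between 88 and 163 bases long, lengths at which 0.656% to 2.11% of genes held one. The matches of the hormone receptors are shown with the seed match in capitals, since ESR1 had the highest pBABE value of the markers and PGR the most matches.
ESR1, chr6:152422084-152422106, plus strand, 3′ UTR: tgtttatcagacaatTGAATGTa
PGR, chr11:100907724-100907746, minus strand, 3′ UTR: tgtgacacaagaaaaTGAATGTa
PGR, chr11:100901389-100901411, minus strand, 3′ UTR: gaggaagtcaaaagcTGAATGTt

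A match is a stretch of letters and was not tested as a site. ESR1 spans chromosome 6 from 151977826 to 152450754 on GRCh37 and PGR chromosome 11 from 100900355 to 101000544. MSLN, which has no match, spans chromosome 16 from 810734 to 818865, and FOLR1, which has none either, chromosome 11 from 71900602 to 71907367. PAX8 spans chromosome 2 from 113973574 to 114036498 and WT1 chromosome 11 from 32409321 to 32457110. All are protein-coding genes.

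Genes related to the markers by family or pathway were counted from 4 lists. Developmental transcription factors of the urogenital tract, the class of PAX8, WT1, SOX17 and EMX2, were above 0 in both pools in 20 of 39 genes, among them the nuclear receptor gene NR2F1 with a pool mean of 98.0 ± 21.2 (SD, n = 2) and the LIM homeobox gene ISL1 with 41.6 ± 6.69 (SD, n = 2). Called or not, 6 of the 39 were higher in both pools than in the pBABE library and 19 lower, beside 6110 and 8599 of all 18674 genes. Of 21 tested by limma 5 fell and none rose (0 higher at an unadjusted p of 0.05). Over all genes tested 21.7% fell and 1% rose. The median log2 difference was -0.01 against 0.07 over all genes tested, and 0.06 against 0.22 in tested genes above 0 in both pools. Of the 5, 3 were at 0 in both pools, among them MECOM and SOX9, and SALL2 fell from 42.2 to 7.84 and SOX18 from 8.98 to 3.18 (limma adjusted p = 0.0457 and 0.045). Among relatives of PAX8, chosen for mention after the values were seen, PAX6 and PAX9 had pool means of 36.9 and 33.8, while PAX2, PAX3 and PAX5 were at 0 in both pools, as PAX8 was.

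Steroid receptors, cofactors and oestrogen response genes, the surroundings of ESR1 and PGR, were above 0 in both pools in 23 of 33 genes. Called or not, 10 of the 33 were higher in both pools than in the pBABE library and 20 lower. Of 27 tested 8 fell and none rose (0 higher at an unadjusted p of 0.05), beside 21.7% and 1% over all genes tested. The median log2 difference was -0.68, which turned to 0.11 in tested genes above 0 in both pools. Of the 8, 4 were at 0 in both pools, among them the oestrogen-responsive genes TFF3 and MYB. The progesterone binding proteins PGRMC1 and PGRMC2 had pool means of 375 ± 102 and 89.0 ± 8.06 (SD, n = 2) without passing limma (adjusted p = 0.225 and 0.235), in pools in which PGR was at 0. The second oestrogen receptor gene ESR2, chosen for mention after its values were seen, was at 0 in all 3 libraries. Folate genes, among which FOLR1 acts, were above 0 in both pools in 18 of 23 genes, led by the thymidylate synthase gene TYMS at 217 ± 15.2 (SD, n = 2). Called or not, 12 of the 23 were higher in both pools than in the pBABE library and 7 lower. Of 21 tested 3 fell and none rose (1 higher at an unadjusted p of 0.05), beside 21.7% and 1% over all genes tested. The median log2 difference was 0.35, and all 3 genes that fell (FOLR2, FTCD and ALDH1L1) were at 0 in both pools. The folate carriers SLC19A1 and SLC46A1, chosen for mention after their values were seen, had 21.4 and 7.57 in pool 1 and 13.0 and 7.08 in pool 2, above the 0.540 and 0.577 of FOLR1 in each.

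Mucins and the whey acidic protein family, the relatives of MUC16 and WFDC2, were counted together with the SPINT protease inhibitor genes, which are not of either family. Of these 30 genes 5 were above 0 in both pools, SPINT2 among them, and MUC15 was the best covered at 16.3 ± 0.62 (SD, n = 2). SPINT1 and SPINT2 also enter the counts that follow. Called or not, 2 of the 30 were higher in both pools than in the pBABE library and 19 lower. Of 10 tested 9 fell and none rose (0 higher at an unadjusted p of 0.05), beside 21.7% and 1% over all genes tested. The median log2 difference was -4.04. Of the 9, 7 were at 0 in both pools, where every gene tested was called lower, so the count is not a result about these families. MUC1 had, as MSLN did, rows that gave opposite directions. It fell from 59.3 to 2.72 and 3.00 on its row of highest mean (limma adjusted p = 0.0131), and on its row of highest pool mean the pBABE library had 1.84 and the pools 3.71 and 2.75.

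**Figure D4:**
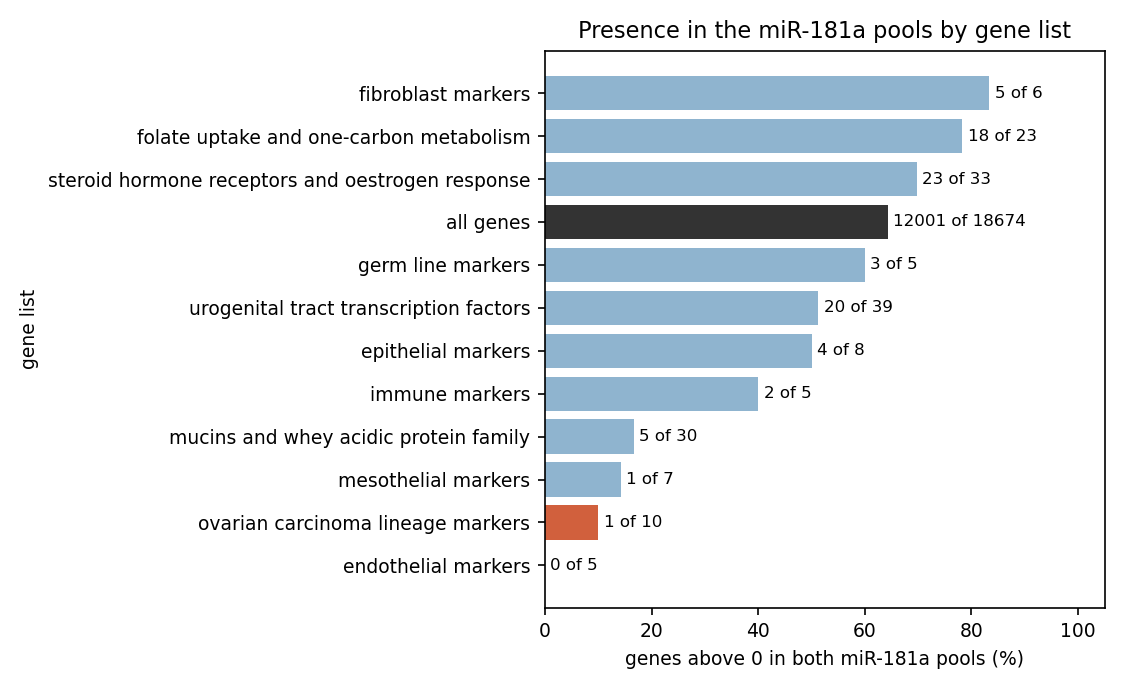
Percentage of genes above 0 in both miR-181a pools (horizontal axis), for the 10 markers, 4 lists of related genes, 6 lists of cell type markers and all genes, with the number of genes beside each bar. The ovarian carcinoma markers stand at 1 of 10, below 64.3% of all genes, and fibroblast, folate and steroid receptor genes stand above it.

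Markers of other cell types were read beside the ovarian ones. Of 8 epithelial markers 4 were above 0 in both pools, with KRT8 at 12.0 ± 2.05 (SD, n = 2) the highest, and EPCAM was at 66.3 in the pBABE library and 0 in both pools. Of 6 fibroblast markers 5 were above 0 in both pools, with the matrix proteoglycan gene DCN at 449.9 ± 41.9 (SD, n = 2) and 144 in the pBABE library, and none passed limma (2 higher at an unadjusted p of 0.05). Mesothelium also expresses WT1, MSLN and MUC16, and of its 7 other markers 1, UPK3B, was above 0 in both pools, at 0.0625 in each. None of 5 endothelial, 2 of 5 immune and 3 of 5 germ line markers were above 0 in both pools. The highest of them was LIN28A at 16.4 ± 1.64 (SD, n = 2), against 99.5 in the pBABE library, a log2 difference of -2.54. Over each gene's row of highest pool mean, summed coverage in the pBABE library, pool 1 and pool 2 was 137, 0.679 and 1.21 for the ovarian markers, 130.1, 17.9 and 16.8 for the epithelial and 56.2, 0.0625 and 0.0625 for the mesothelial markers. In the same order of libraries it was 222, 0 and 0.037 for the endothelial, 28.3, 2.45 and 2.37 for the immune, 128, 17.5 and 19.6 for the germ line and 324, 826 and 750.3 for the fibroblast markers. The endothelial markers KDR, VWF, PECAM1, CDH5 and TEK were at 167, 36.6, 11.9, 4.72 and 1.61 in the pBABE library. In that library the ovarian markers other than ESR1 were at 12.4 or less, so PECAM1, CDH5 and TEK lay within their range. By summed coverage the pBABE library was thus higher than both pools for each of these lists but the fibroblast one, in sums that rest on few genes, such as KDR. The pBABE sums are also raised by the choice of row. Where rows of a gene tied on pool mean, the row of highest mean over the 3 libraries was summed. ESR1 thus entered with 104, where another of its rows had 4.57, and MSLN with 12.4, where its other row had 0. Single genes went the other way: the epithelial gene CLDN4 was at 0.589 in the pBABE library, 1.76 in pool 1 and 1.21 in pool 2, and the germ line gene NANOG at 0.166, 1.64 and 1.77. The fibroblast gene COL1A1 was at 7.41 in the pBABE library, 0 in pool 1 and 0.706 in pool 2. The part of other cell types in these values was not tested.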

How the data were processed

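Per the labels' protocols, poly-A RNA was sequenced on an Illumina instrument, and the authors mapped reads to hg19 and took the median read density over sliding windows of 50 bp as the coverage signal of each transcript. Their aligner is not given in the sources used here. Although those protocols speak of log-transformed, quantile-normalized coverage, the deposited signal is on a linear scale with quantiles that differ between libraries. Rows with a blank pBABE value (308 of 29156, none of a marker) were left out. The 54 symbols turned into dates were looked up by accession, and 52 were restored. Per symbol, the row of highest mean over the 3 libraries was tested as log2(coverage + 1) with limma 3.58.1 in R 4.3.3 (eBayes with trend, Benjamini-Hochberg adjustment at 0.05), in genes above the lowest 25% of means not at 0. With 1 residual degree of freedom, from the pools, the pBABE library is taken to vary as much as they do. The fit was also run on simulated libraries, built from genes above 0 in both pools. Their vector library was given the spread of the pools, so that run does not bear on rows at 0 in the pools. The row of highest pool mean was used for presence and for sums, with ties broken by the mean over the 3 libraries. The authors' 6 derived columns were not used.

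Named were all 10 markers and, in each list, up to 4 genes of highest pool mean, up to 2 of largest fold each way and any called gene where 5 or fewer were called, of which the text gives examples. Markers and lists were chosen with earlier results of these data known. Alternatives covered filter, pseudocount, row, scaling, variance model, size threshold and each pool left out. Genes above 0 in both pools were tried after the data were seen. With 3 libraries, no gene was sought by likeness of pattern.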

Additional observations from a re-analysis of the deposited data

How the results depend on the processing

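No marker reached 1 or 10 in both pools (0 at either level), against 1 above 0. With either pool left out the count above 0 was 2 (MSLN or WFDC2 beside FOLR1). Markers called lower by limma, 2 in the main setting, were 7 of 8 tested with no filter, where WFDC2 did not pass. Of these 7, 5 (PAX8, EMX2, PGR, MUC16 and ESR1) were at 0 in both pools. Their values did not differ between the pools, so even MUC16, at 0.649 in the pBABE library, was called. The count of 7 is therefore not a result about the markers either. Only 1, ESR1, was called lower with a filter at the median, with the mean of rows and with quantile normalization. In the last 1 marker, FOLR1, was called higher (the cause was not tested). Markers lower by 1 log2 unit or more in each pool, 7 in the main setting, were 2 with a pseudocount of 10 and 3 with quantile normalization, and 7 to 7 with a pool left out. Over all genes, no filter gave 5626 lower and 278 higher of 16737 tested. A filter at the median gave 1476 and 402. Genes above 0 in both pools, tried after seeing the data, gave 1196 and 232, a fit in which no marker was tested. Medians set equal gave 6355 higher and quantile normalization 5179. Of 110 recomputed log2 differences of single markers, 78 kept their value or call, 31 moved and 1, MSLN, no longer passed. Many of the 78 could not have changed, so their number does not measure stability. The filter and the variance model do not alter a log2 difference. A pool left out cannot move a marker at 0 in both pools. No paired analysis was possible because a single vector library stands against both pools. Depth is unknown, so a marker at 0 cannot be given an upper limit.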

Other observations

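The vector value of PGR, 3.85, was held exactly by 18 other symbols, and that of the MUC16 row, 0.649, by 4. The ESR1 row NM_001122741, at 104, shared its value with no other symbol, and the same held for rows of FOLR1, MSLN and EMX2. The PAX8 value of 4.71, WFDC2 and the FOLR1 row NM_016725 each shared theirs with 1 other symbol, and the ESR1 row NM_001122742 with 2. How often rows share a value over all genes was not counted, so these numbers do not set any marker apart.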
